A study of Saccharomyces cerevisiae with 7 samples.

Results

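The genes described here encode the enzymes of lower glycolysis in the budding yeast Saccharomyces cerevisiae, from aldolase to pyruvate kinase. They are FBA1, TPI1, TDH1, TDH2, TDH3, PGK1, GPM1, ENO1, ENO2 and CDC19, chosen by their systematic names in the deposited transcript annotation. All 10 were found among its 3196 transcripts, of which 3000 are mRNAs by their systematic names. The RNA came from log-phase cells grown at 23 °C and was folded in 100 mM KCl with 10 mM magnesium. The titles of the samples call it total RNA, while their source and molecule fields and the extraction protocol describe it as polyA-selected. The refolded RNA was then cleaved for 15 min with RNase V1, which cuts base-paired RNA, or with nuclease S1, which the labels call RNase S1 and which cuts single-stranded RNA. There are 4 libraries labelled RNase V1 and 3 labelled RNase S1, all from the same kind of RNA, and the labels name neither strain nor genotype. What was analysed here is the annotation that goes with those libraries, namely the position of each transcript, coding region and untranslated region (UTR). Cleavage values per library were not analysed here. No length below therefore has a replicate error, the depth behind it is unknown, and no test was made. Values of the 10 genes are given beside those of all other mRNAs as a description.

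Glycolysis turns glucose into pyruvate, and its lower part starts where aldolase splits a hexose bisphosphate into a pair of triose phosphates. The later steps oxidise the triose and pass its energy to ATP. Yeast ferments glucose even in air, and in glucose medium the mRNAs of these enzymes are known to be among the most abundant of the cell. Several of the steps have duplicated genes: 3 for glyceraldehyde phosphate dehydrogenase (TDH1, TDH2 and TDH3) and 2 for enolase (ENO1 and ENO2). The 10 genes thus cover 7 reactions.

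Most of the 10 mRNAs carried 5' UTRs shorter than the median mRNA, and their 3' UTRs were of ordinary length. The 5' UTRs had a median of 36 nt (lowest 11, highest 122 nt), against 50 nt in the 2669 other mRNAs with a 5' UTR (quartiles 30 and 95 nt). Of the 10, 8 lay below that 50 nt, as did 49.1% of all 2679 mRNAs with a 5' UTR. The 3' UTRs had a median of 118 nt (lowest 28, highest 167 nt), against 106 nt in 2872 other mRNAs (quartiles 72 and 155 nt), and 6 of 10 lay above 106 nt, as did 49.8% of all mRNAs. All 10 had both UTRs listed and no intron, as 89.1% and 93.4% of the 3000 mRNAs did.

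**Figure D1:**
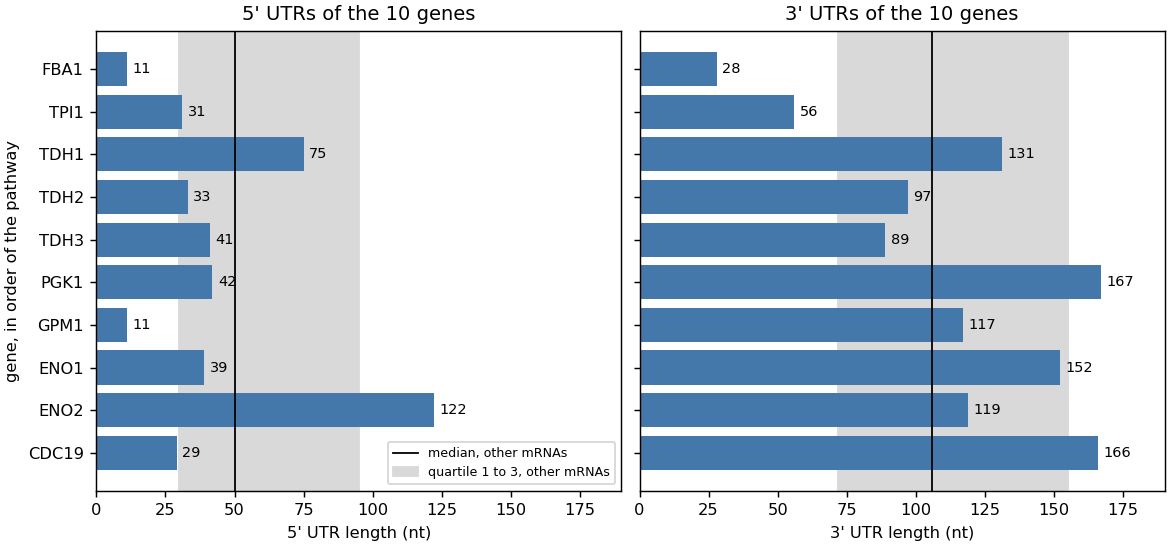
Length of the 5' UTR (left) and 3' UTR (right) of each of the 10 genes in nt, as bars with the value at the end, from aldolase at the top to pyruvate kinase at the bottom. The line marks the median of the other mRNAs (50 and 106 nt) and the grey band their quartiles. In the left panel only TDH1 and ENO2 pass the line.

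FBA1 (YKL060C), the aldolase gene, had the most compact transcript. It ran on chromosome 11 from 326024 to 327142 on the minus strand, with a 5' UTR of 11 nt, 1080 nt of coding sequence and a 3' UTR of 28 nt. Coding sequence made up 96.5% of it, against a median of 86.1% in 2476 other intronless mRNAs with both UTRs. Only 3.58% of mRNAs had a shorter 5' UTR and 2.81% a shorter 3' UTR. All such positions follow the authors' annotation, with a build not given in the sources used here. TPI1 (YDR050C) encodes triose phosphate isomerase, which interconverts the products of aldolase. Its transcript lay on chromosome 4 from 555669 to 556502, minus strand, with 31 nt of 5' UTR, 747 nt of coding sequence and 56 nt of 3' UTR. FBA1 and TPI1 were thus the 2 members with the shortest 3' UTRs.

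The dehydrogenase genes encode the enzyme that oxidises the triose and makes NADH, and all 3 had 999 nt of coding sequence, yet their ends differed. TDH1 (YJL052W), on chromosome 10 from 338191 to 339395 on the plus strand, had 75 nt of 5' UTR and 131 nt of 3' UTR. TDH2 (YJR009C), on the same chromosome from 453579 to 454707 on the minus strand, had 33 and 97 nt. TDH3 (YGR192C), on chromosome 7 from 882728 to 883856 on the minus strand, had 41 and 89 nt. TDH1 therefore had the longest UTR of the family at both ends, its 5' UTR being 42 nt longer than that of TDH2 and 34 nt longer than that of TDH3. The transcripts of TDH2 and TDH3 were both 1129 nt long.

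PGK1 (YCR012W) encodes phosphoglycerate kinase, the first enzyme of the pathway to make ATP. Its transcript, on chromosome 3 from 137702 to 139161 on the plus strand, had 42 nt of 5' UTR, 1251 nt of coding sequence and 167 nt of 3' UTR, the longest 3' UTR of the 10. GPM1 (YKL152C) encodes the mutase that moves the phosphate of phosphoglycerate. It lay on chromosome 11 from 163530 to 164401, minus strand, with an 11 nt 5' UTR like that of FBA1, 744 nt of coding sequence and a 117 nt 3' UTR. In all, 110 mRNAs had a 5' UTR of 11 nt or less.

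The enolase genes, whose product forms phosphoenolpyruvate, showed the widest 5' difference between copies. ENO2 (YHR174W), on chromosome 8 from 451205 to 452759, had 122 nt of 5' UTR and 119 nt of 3' UTR. ENO1 (YGR254W), on chromosome 7 from 1000893 to 1002397, had 39 and 152 nt, and both genes have 1314 nt of coding sequence on the plus strand. The 5' UTR of ENO2 was 83 nt longer than that of ENO1, a ratio of 3.13, and longer than that of 81.8% of all mRNAs. ENO2 was also the only member whose 5' UTR exceeded its 3' UTR, by 3 nt. The 3' UTR was the longer in the other 9 of 10, beside 75.1% of 2674 mRNAs with both UTRs. CDC19 (YAL038W), the main pyruvate kinase gene, ran on chromosome 1 from 71758 to 73455 on the plus strand with 29 nt of 5' UTR, 1503 nt of coding sequence and 166 nt of 3' UTR.

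**Figure D2:**
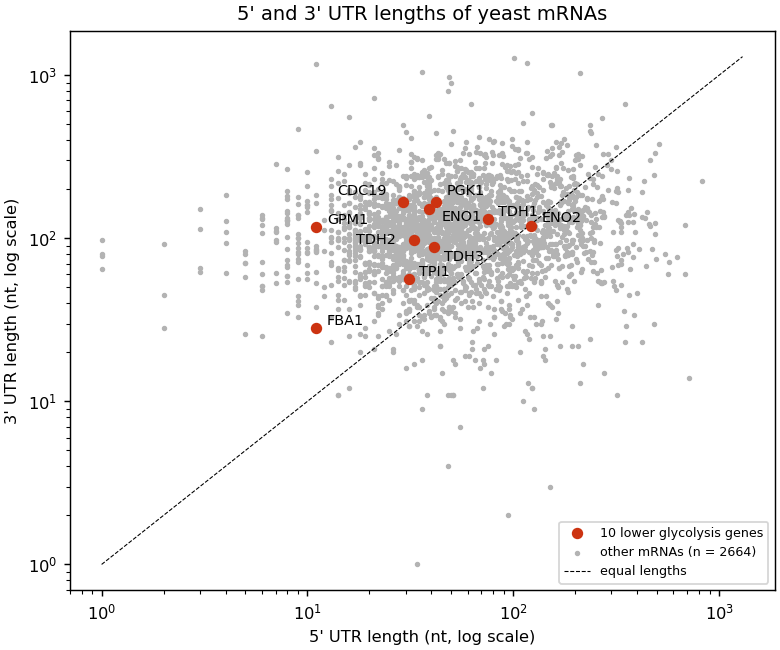
5' UTR length (horizontal) against 3' UTR length (vertical), both in nt on log scales, for the 10 genes (red, named) and for 2664 other mRNAs with both UTRs (grey). The dashed line marks equal lengths. ENO2 (122 and 119 nt) lies just under the line and the other 9 genes above it, with FBA1 at the lower left (11 and 28 nt).

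In order of 5' UTR length the members ran from FBA1 and GPM1 (11 nt each) through CDC19, TPI1, TDH2, ENO1, TDH3 and PGK1 (29 to 42 nt) to TDH1 (75 nt) and ENO2 (122 nt). The middle 6 lay within 13 nt of each other. That range was set by these 6 genes themselves, so their count inside it is no result. It held 18.4% of other mRNAs with a 5' UTR. Without an error on any end, neighbours in this order cannot be told apart by a test. In order of 3' UTR length they ran from FBA1 (28 nt) and TPI1 (56 nt) through TDH3, TDH2, GPM1, ENO2, TDH1 and ENO1 to CDC19 (166 nt) and PGK1 (167 nt). The orders at the ends differed: GPM1 and CDC19 combined a short 5' UTR with a 3' UTR above the median. Coding length, from 744 nt in GPM1 to 1503 nt in CDC19, was ordinary, with a median of 1039.5 nt against 1080 nt in other mRNAs.

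The duplicated genes were then compared in sequence, because reads from identical stretches of copies cannot be assigned to either. The coordinates of the annotation did not follow the R64 reference: 1 of the 10 coding regions, and 426 of 3000 (14.2%), had the same start and end there. All 10 nevertheless had the same coding length in R64, so sequence was taken from R64 by gene name. TDH2 and TDH3 differed at 42 of 999 coding positions (95.8% identical), TDH1 and TDH2 at 98 (90.2%) and TDH1 and TDH3 at 111 (88.9%). ENO1 and ENO2 differed at 68 of 1314 positions (94.8% identical). In this respect TDH1 stood apart from the other two, as it did in UTR length.

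The opening of each coding sequence shows this directly. In the first 30 coding nt, TDH1 has 3 positions, in capitals, that differ from TDH2 and TDH3, which are identical to each other there. The sequences are from R64, 5' to 3' on the coding strand, at chr10:338271-338300 (plus), chr10:454652-454681 (minus) and chr7:883781-883810 (minus).
TDH1: atgAtCagaAttgctattaacggtttcggt
TDH2: atgGtTagaGttgctattaacggtttcggt
TDH3: atgGtTagaGttgctattaacggtttcggt
Among consecutive 30 nt windows, TDH2 and TDH3 differ most in coding positions 61 to 90, counted from the A of the start codon, with 6 differences in 30 nt, again in capitals (chr10:454592-454621 and chr7:883721-883750, both minus).
TDH2: ttgCAAagaAAGaacgtcgaagttgttgct
TDH3: ttgTCTagaCCAaacgtcgaagttgttgct

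ENO1 and ENO2 begin with the same 30 nt, shown for each from chr7:1000927-1000956 and chr8:451327-451356, both plus, with no capitals because no position differs.
ENO1: atggctgtctctaaagtttacgctagatcc
ENO2: atggctgtctctaaagtttacgctagatcc
The first of their windows with most differences, also 6, is coding positions 211 to 240 (chr7:1001137-1001166 and chr8:451537-451566).
ENO1: GaTgtcattgctCcAgctttcgtTaaggcT
ENO2: AaCgtcattgctGcTgctttcgtCaaggcC

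Long stretches of the reading frames held no difference. Of 33 full windows of 30 nt, 15 held no difference between TDH2 and TDH3, and the longest identical run was 173 nt, at coding positions 355 to 527. TDH1 shared an identical run of 129 nt with TDH2 (613 to 741) and of 92 nt with TDH3 (436 to 527). ENO1 and ENO2 shared one of 112 nt (551 to 662), and 17 of their 43 full windows held no difference. Next to the reading frames, fewer positions matched. In the 30 nt before the start codon, compared without gaps, 13 positions matched between TDH2 and TDH3, 20 between TDH1 and TDH2, 13 between TDH1 and TDH3 and 14 between ENO1 and ENO2. In the 30 nt after the stop codon, 13, 16, 11 and 7 matched in the same order of pairs.

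**Figure D3:**
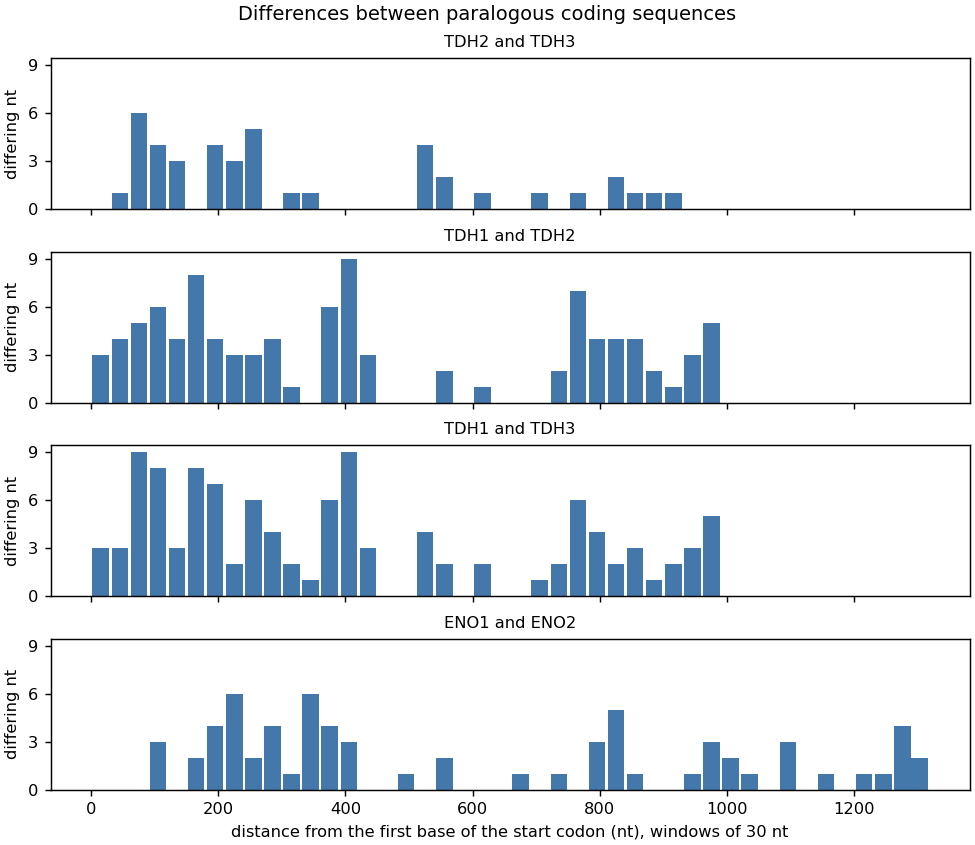
Number of differing nt in consecutive 30 nt windows, the last of each pair being shorter (vertical) by distance from the first base of the start codon in nt (horizontal), for TDH2 and TDH3, TDH1 and TDH2, TDH1 and TDH3, and ENO1 and ENO2 from top to bottom. Windows without a bar hold no difference, as those from coding position 361 to 510 of TDH2 and TDH3. The tallest bars stand at 9 for the pairs with TDH1 and at 6 for the other pairs.

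Many of the differing codons were synonymous. This held for 21 of 33 codons between TDH2 and TDH3, 37 of 75 between TDH1 and TDH2, 40 of 79 between TDH1 and TDH3, and 33 of 54 between ENO1 and ENO2. At the protein level TDH2 and TDH3 differed at 12 of 332 residues, and ENO1 and ENO2 at 21 of 437. TDH1 differed from TDH2 at 38 residues and from TDH3 at 39. Of all 50 nt windows in the coding sequence, 31.3% in TDH2, 24.4% in TDH3 and 15.7% in TDH1 occurred without change in another coding sequence of R64. The share was 23.6% in ENO1 and in ENO2, and 0 windows of FBA1, TPI1, PGK1, GPM1 and CDC19 recurred. In each case the other sequence was a copy of the same family. With windows of 25 nt the shares were 58.4% in TDH2, 51.6% in TDH3, 31.5% in TDH1 and 46.4% in each enolase gene. With read length and the handling of reads that match several genes not given in the sources used here, any value per gene for TDH1, TDH2, TDH3, ENO1 and ENO2 would be uncertain by reads from these stretches.

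All 10 genes used few of the synonymous codons open to them. The effective number of codons, which is 20 when each amino acid has a single codon and 61 when all are used equally, ran from 24.1 in TDH3 to 27.1 in GPM1. Its median was 25.7 in the 10 genes, against 50.3 in 2829 other mRNAs (quartiles 45.6 and 53.8). TDH3 had the lowest value of all 2839 mRNAs with at least 100 codons, TDH2 (24.5) ranked 6, CDC19 (24.9) 8, ENO2 (25.1) 9 and ENO1 (25.5) 13. FBA1 (25.9), TDH1 (26.1), PGK1 and TPI1 (26.6 each) and GPM1 ranked from 19 to 52. Only 42 other mRNAs (1.48%) had a value under that of GPM1, of which 33 bear symbols of cytosolic ribosomal proteins and 2 are the fermentation genes PDC1 and ADH1. The copies of a family share sequence, so the 10 values are not independent.

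**Figure D4:**
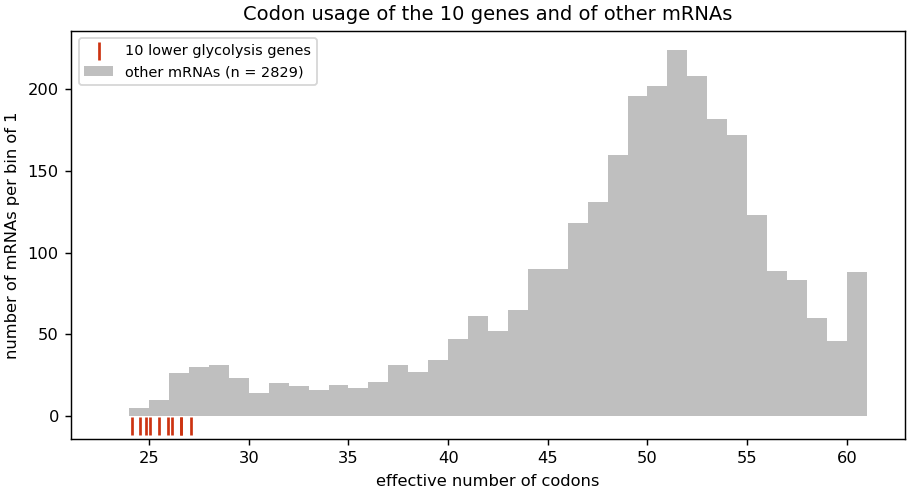
Number of mRNAs (vertical) by effective number of codons in bins of 1 (horizontal), for the 10 genes (red ticks below the axis) and 2829 other mRNAs (grey bars). The ticks lie between 24.1 and 27.1, at the far left of a distribution whose median is 50.3.

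The 10 reading frames together held 3640 sense codons and left 16 of the 61 unused, with 30 used at most 5 times. Glycine was encoded by GGT in 99.3% of cases, against 52.0% in the other mRNAs. Glutamate was encoded by GAA in 99.1% against 71.2%, and glutamine by CAA in all 78 cases against 70.2%. For arginine AGA took 93.8% against 51.3%, and for leucine TTG took 88.2% against 31.8%. In several amino acids the preferred codon was the less used one elsewhere: AAG for lysine (93.1% against 46.9%), TTC for phenylalanine (92.9% against 44.5%) and AAC for asparagine (96.2% against 44.3%). Serine, threonine and valine kept a pair of codons ending in T or C, as valine GTT (51.5% against 40.5%) and GTC (48.5% against 22.4%). The stop codon was TAA in 10 of 10 genes, as in 48.6% of 2979 mRNAs with a matching coding length.

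The stretch before the start codon was rich in A and poor in G and C. In R64, A stood at the third position before the start codon in 10 of 10 genes, as in 66.3% of all 2979 mRNAs. Over as many bases upstream of the start codon as the annotated 5' UTR is long, the share of A ran from 46.7% in TDH1 to 64.5% in TPI1 in 9 genes, each above the upper quartile of 2653 other mRNAs (45.5%). ENO2 was the exception, with 27.0% A, under the lower quartile of 32.3%, and 51.6% T, above the upper quartile of 33.3%. The median share of G and C was 21.4% in the 10 genes, against 34.2% in the others, and 9 of 10 lay below that value, ENO1 (35.9%) being above. The letters ATG occurred in this stretch in 0 of 10 genes, beside 15.2% of 2663 mRNAs with a 5' UTR. Length was not matched in this count or in the shares of bases. The 5' UTRs of the 10 genes had the shorter median (36 against 50 nt), and the shares of FBA1 and GPM1 rest on 11 nt each.

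Further upstream, letters known from the regulation of glycolytic genes were counted in the 1000 nt before the start codon, on both strands. Rap1, a DNA-binding activator that also acts at ribosomal protein genes, is known to bind sites such as CACCC followed, after 2 free bases, by ACA. A match of these letters, called the Rap1 core here, was present in 4 of 10 genes, TDH3, GPM1, ENO1 and CDC19, as in 4.7% of 2979 mRNAs. Gcr1, the main activator of glycolytic genes, binds at the core CTTCC. That core was present in 9 of 10, as in 88.8% of mRNAs, a share near the background in this window, and its median number per gene was 4 against 2 in others. Within 500 nt it was present in 9 of 10 genes and in 66.3% of other mRNAs. TDH3 was the gene without CTTCC in this window. The window takes in the 5' UTR, which held a CTTCC in PGK1 (38 nt upstream) and in ENO2 (94 nt). It can also reach into a neighbouring gene. These are matches of letters and not measured binding sites.

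The matches of the Rap1 core, in capitals, are shown in 30 nt of R64 on the strand of the gene. They differ in orientation and in the free positions, except that TDH3, read on the opposite strand, has the same letters as CDC19. They begin 511 nt (TDH3, where the match is on the opposite strand), 395 nt (GPM1), 468 nt (ENO1) and 653 nt (CDC19) before the start codon. The windows are chr7:884302-884331 (minus), chr11:164761-164790 (minus), chr7:1000449-1000478 (plus) and chr1:71123-71152 (plus).
TDH3: acatcgtaggTGTCTGGGTGaacagtttat
GPM1: ctagcgcgcgCACCCACACAcaagcttcgt
ENO1: actaggatagCACCCAAACAcctgcatatt
CDC19: aaaaaatgtaCACCCAGACAtcgggcttcc
In the CDC19 window the core CTTCC, in lower case, follows the match and ends the line.

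Core promoter letters were counted too, and any link between them and where the transcripts begin was not tested. The transcript start was placed in R64 by counting the annotated 5' UTR length back from the start codon. TATAAA, on the strand of the gene and within 200 nt before that start, was present in 9 of 10 genes, as in 22.1% of 2663 mRNAs with a 5' UTR. Each of the 9 held it once, with its first base between 69 nt (ENO2) and 170 nt (CDC19) before the transcript start and a median of 107 nt. GPM1 was the gene without it. The distance was 77 nt in TDH1, 99 nt in TDH2 and 98 nt in TDH3. The windows of TDH1, TDH3, ENO1 and ENO2 are given as examples, because these copies differ in 5' UTR length, with TATAAA in capitals (chr10:338107-338136 plus, chr7:883932-883961 minus, chr7:1000769-1000798 plus, chr8:451124-451153 plus).
TDH1: gtctcgaaatcaTATAAAtagacaatatat
TDH3: gactaataagtaTATAAAgacggtaggtat
ENO1: acgatttcaacaTATAAAtagcttttgata
ENO2: gcaccaagcataTATAAAaaaaaaaagcat
Counted from the start codon, the first base of the hexamer lay 152 nt upstream in TDH1, 139 nt in TDH3, 146 nt in ENO1 and 191 nt in ENO2.

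**Figure D5:**
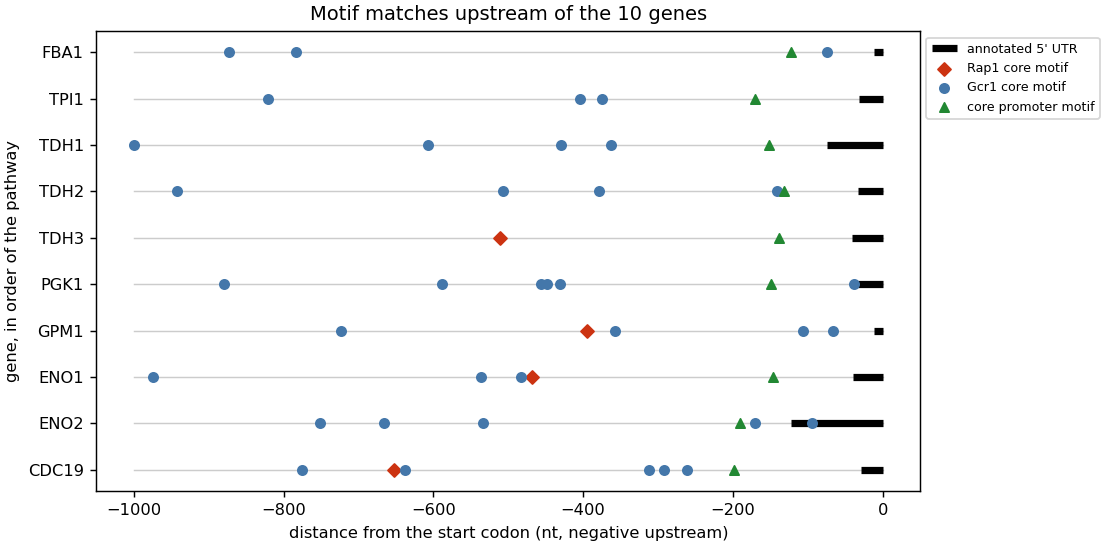
Matches upstream of each of the 10 genes by distance from the start codon in nt (horizontal, negative upstream). Black bars are the annotated 5' UTRs, red diamonds the Rap1 core, blue circles the Gcr1 core and green triangles the core promoter hexamer. Triangles stand between 123 and 199 nt upstream in 9 genes, each ahead of the black bar, and diamonds in 4 genes between 395 and 653 nt upstream.

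After the stop codon, TATATA, letters known from yeast 3' end formation, occurred within the annotated 3' UTR length in 6 of 10 genes, as in 49.5% of 2863 mRNAs, a share near the background. Overlapping matches were each counted. PGK1 held 3 matches, at 103 to 113 nt after the stop codon. GPM1 held 2 that overlap, at 105 and 107 nt, while TPI1, TDH3, ENO1 and CDC19 held 1 each. None was found in the 28 nt of FBA1 or in TDH1, TDH2 and ENO2. The same stretch was 74.0% A and T in TDH1, the lowest, and 85.7% in FBA1 and TPI1, the highest.

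The 10 genes were scattered over 7 chromosomes, 5 on each strand, and only ENO1 overlapped a neighbour in the annotation. ENO1 and COQ6, a gene of ubiquinone synthesis, are transcribed towards each other and shared 90 nt on chromosome 7 (1002308 to 1002397). The shared stretch was 59.2% of the 152 nt 3' UTR of ENO1 and 40.9% of the 220 nt 3' UTR of COQ6, and reached 0 nt of either coding sequence. Overlap with a neighbouring mRNA was thus seen in 1 of 10 genes, beside 16.8% of all 3000 mRNAs. Both counts see listed transcripts only, and for FBA1 and TDH1 neither listed neighbour is the adjacent protein-coding gene of R64. The length of 90 nt compares with a median of 77 nt over 224 overlapping convergent pairs.

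The nearest listed transcripts of the other genes lay farther off, although the annotation omits many genes and only 10 of the 18 pairs with another mRNA are also next to each other in R64. Among those 10, ENO2 ended 112 nt before CTR2, a copper transporter gene in the same direction. TDH3 ended 259 nt from HIP1, a histidine permease gene transcribed towards it, and began 574 nt from PDX1, which encodes a component of the pyruvate dehydrogenase complex. GPM1 began 420 nt from NNR2, which encodes a repair enzyme of damaged NADH, TPI1 510 nt from DET1 and PGK1 694 nt from the divergent ADP1. Larger gaps separated TDH2 from MET3, a sulfate assimilation gene (1434 nt), ENO1 from the proteasome gene PUP2 (1702 nt) and CDC19 from CYC3, which encodes cytochrome c heme lyase (2181 nt).

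The remaining 8 pairs of mRNAs are separated in R64 by genes for which no transcript was used here, so the true nearest gene is closer. Around FBA1 they were 4701 nt to YKL063C and 2646 nt to TOA2, and around TDH1 1023 nt to PEP8 and 2938 nt to MTR4. The others were 2641 nt from TPI1 to HEM12, 1482 nt from TDH2 to SUI2, 5718 nt from ENO2 to NMD3 and 1421 nt from CDC19 to RBG1. In the 2 pairs with a non-coding RNA, PGK1 lay 3200 nt from the small nucleolar RNA snR33, and GPM1 966 nt from an arginine tRNA gene, tR-UCU-K.

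The 10 genes were set beside the rest of the pathway. Of 34 other genes on 6 lists, 24 were in the annotation, and 8 of these 24 lay below 50 nt at the 5' end, with a median of 72 nt, where 8 of the 10 lower glycolysis genes did, with a median of 36 nt. In upper glycolysis, all 6 genes had 3' UTRs above 106 nt (median 184 nt), led by PFK2, a phosphofructokinase subunit gene (292 nt). Their 5' UTRs ran from 31 nt in GLK1 (glucokinase) to 224 nt in PFK1, with HXK2 at 34, PGI1 at 43, PFK2 at 65 and HXK1 at 89 nt. In fermentation, PDC1 (32 nt) and ADH1 (39 nt), the main pyruvate decarboxylase and alcohol dehydrogenase genes, lay within the range of CDC19 to PGK1. ADH2 had 48, ADH5 63, ADH3 65, PDC5 138 and ADH4 267 nt. The effective number of codons was 24.7 in PDC1 and 26.2 in ADH1, and the lowest in upper glycolysis was 30.2 in PGI1, above all 10 lower glycolysis genes.

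The minor isozymes that share a reaction or a name with members had other ends. CDC19 had a 29 nt 5' UTR and an effective number of codons of 24.9, while PYK2, the pyruvate kinase gene that glucose represses, had 99 nt and 52.9. GPM1 had 11 nt and 27.1, while its relative GPM3 had 60 nt and 55.4. In the glycerol branch, which draws on the triose phosphates made by aldolase, 5' UTRs were 18 nt in GPP1, 88 nt in GPD1, 198 nt in GPP2 and 230 nt in GPD2. The gluconeogenic pyruvate carboxylase genes had 235 nt in PYC1 and 141 nt in PYC2. Of the regulators, GCR1 had a 20 nt 5' UTR and an intron, RAP1 79 nt, and ABF1 101 nt with a 3' UTR of 1274 nt. The other 10 genes on these lists, among them FBP1, PCK1, PDC6 and GCR2, were not analysed here.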

How the data were processed

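The deposited file is the authors' transcript annotation, with gene, chromosome, start, end and feature per entry, counted from 1 per the design text. The way the authors set UTR ends, the aligner and the genome build were all not given in the sources used here. RNase V1 and RNase S1 libraries were grouped by their titles. Lengths count both end positions, and introns were gaps of at least 10 nt between exons. Symbols and sequence came from RefSeq R64 by gene name, which matched 2999 of 3000 names. The 2979 mRNAs with equal coding length were used for sequence, and no R64 coordinate was combined with a coordinate of the annotation. Annotated UTR lengths were laid onto R64, upstream from the start codon or downstream from the stop codon.

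The effective number of codons (Wright's formula) was computed for reading frames of at least 100 codons. Code for codons, motifs and strands was tested on simulated sequences. Python 3.11.15, NumPy 2.4.6, SciPy 1.17.1, pandas 2.3.3 and Matplotlib 3.10.9 were used.

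The members, lists and motifs were chosen with earlier results of these data known, so no test was made. Named genes were the 10 members, their nearest listed transcripts, the genes of 6 pathway lists and the 3 mRNAs nearest in lengths. Alternatives changed the background mRNAs, the smallest UTR, the copies kept, the neighbours, the codon index and the motif windows.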

Additional observations from a re-analysis of the deposited data

How the results depend on the processing

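Of 15 alternative settings for a share of the 10 genes, 14 left it within the 95% exact binomial interval of its reported value, an interval that is wide with 10 genes and covers counting over genes only. The other 4 settings took protein in place of coding identity within the TDH and ENO families, and each stayed within the interval over coding positions. Protein and coding identity are different measures, and positions of a sequence are not independent, so that interval is no measure of error. The exception among the 15 was codon usage. By the effective number of codons 100% of the 10 genes were in the most biased twentieth of mRNAs, but by the share of codons that are the most frequent for their amino acid over all mRNAs 20% were. On that second index the 10 genes ran from 53.1% to 59.9%, against a median of 48.0% in other mRNAs. The lowest of these member values was exceeded by 582 other mRNAs. By its construction that index counts codons set by all mRNAs alike. AAA for lysine is one of them, and the 10 genes used it in 6.93% of cases. With 1 gene kept per reaction, TDH3 (41 nt) and ENO2 (122 nt) for the duplicated ones, 6 of 7 had a 5' UTR below the median of other mRNAs. This count depends on the copies kept, since TDH1 (75 nt) lies above that median and ENO1 (39 nt) below it. Within 500 nt, the Rap1 core was found in 2 of 10 genes and in 2.86% of other mRNAs, and CTTCC in 9 of 10 genes and in 66.3% of other mRNAs. TATAAA within 120 nt of the transcript start, a window chosen after seeing the data, was found in 7 of 10 genes and in 17.0% of mRNAs. No paired analysis was possible because only the annotation, with no library values, was used. So the comparison of RNase V1 with RNase S1 and the fits without each replicate were not run, and depth could not be weighed.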

Other observations

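Genes of the pathway that share a reaction or a name were paired, among them the phosphofructokinase subunit genes PFK1 and PFK2. The count below was made after its values were seen and was not tested. The gene with the narrower codon usage had the shorter 5' UTR in 17 of 24 pairs. It did so in 4 of the 6 pairs of lower glycolysis: TDH2 and TDH3 against TDH1, CDC19 against PYK2, and GPM1 against GPM3. The 2 exceptions were ENO2, with 25.1 effective codons and a 122 nt 5' UTR, against ENO1 with 25.5 and 39 nt, and TDH3 (24.1, 41 nt) against TDH2 (24.5, 33 nt). In the 18 pairs outside lower glycolysis it did so in 13. The 5 that went the other way were HXK1 and HXK2 against GLK1, ADH4 against ADH3 and against ADH5, and ADH3 against ADH5. Pairs within a family share genes and are not independent. Over 2529 other mRNAs the effective number of codons and 5' UTR length had a Spearman rho of 0.01, across genes that are not independent either.

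The 3 mRNAs nearest to the median of the 10 genes in log2 5' UTR, 3' UTR and coding length were OPY1 (36, 113 and 987 nt), IPA1 (34, 111 and 1044 nt) and IKI1 (36, 110 and 930 nt). TDH2 was the nearest member, with 13 other mRNAs closer, and FBA1 the farthest, with 2288 closer.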
